A study of Homo sapiens with 24 samples.

Results

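MYC, the long non-coding RNA gene PVT1 beside it, the G1 cyclin genes CCND1 and CCNE1, the kinase gene CDK6, the CDK inhibitor genes CDKN1A, CDKN1B, CDKN2A and CDKN2B, and MTAP were followed in 6 tables of H3K27Ac regions. H3K27Ac, acetylation of histone H3 at lysine 27, marks active promoters and enhancers, and ChIP-seq maps it from antibody-bound chromatin fragments. A region belonged to a gene when the authors' annotation named that gene as overlapping it or flanking it within 10000 bp. By this rule 487 of 171345 regions in the 6 tables were members, and 8 of the 10 genes had at least 1. CDKN2A and CDKN2B had none in any table.

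The 24 libraries came in 8 groups of 3, which cross 2 human mammary epithelial lines, a hairpin and an antibody step. MCF10A (10A) is a non-tumorigenic line, and MCFDCIS (DCIS) is a related line that models ductal carcinoma in situ. Each line carried a lentiviral hairpin against ANCO1, the product of ANKRD11 (shANCO1), or a control hairpin against GFP (shCTRL), and was profiled as H3K27Ac immunoprecipitate or as input chromatin. All cells of both lines were virus-infected and puromycin-selected, were grown with horse serum, EGF, hydrocortisone, insulin and cholera toxin. The labels name 1 ANCO1 hairpin group per line, so effects of the hairpin sequence and of ANCO1 loss cannot be told apart. Direct tables gave shANCO1 over shCTRL within a line, and the other 4 tables gave each group over input. Each table holds 1 value per region for the whole group, so replicate spread, depth and standard errors were unknown, and significance below means the authors' csaw FDR under 0.05.

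Cells enter S phase after D-type cyclins with CDK6, and then cyclin E with its kinase, inactivate the retinoblastoma protein. The products of CDKN1A (p21) and CDKN1B (p27) hold back these kinases, and those of CDKN2A (p16) and CDKN2B (p15) bind CDK4 and CDK6. MYC is a transcription factor that drives growth and proliferation, PVT1 is its neighbour and contains enhancers, and MTAP, an enzyme of methionine salvage, lies next to CDKN2A. The CDKN1A gene is a classical target of p53.

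Sequences in called regions outside the MYC locus are shown because each run holds one of the searched motifs: AP-1 (TGACTCA or TGAGTCA), TEAD (GGAATG), the E-box (CACGTG) or, for the last run, the p53 consensus, all read on both strands. They are plus-strand GRCh38 with 20 bases on each side of the match, and capitals mark the match, so a TEAD match on the minus strand reads as its reverse complement. The first 4 come from each gene's region of lowest FDR, where CDKN1A was gained in both lines, CDK6 in DCIS, and CCND1 and CDKN1B in 10A. The same TEAD match lay in the CDKN1A region of both lines, 911 bp from the midpoint of the 10A region. All 4 matches lie outside the 500 bp at the midpoint, where motifs were counted over all regions. Whole regions were searched for these runs, so no share over all regions stands beside them.
CDKN1A, chr6:36676269-36676314: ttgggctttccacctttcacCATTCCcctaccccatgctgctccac
CDK6 intron, chr7:92645294-92645339: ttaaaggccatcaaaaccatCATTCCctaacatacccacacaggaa
CCND1 intron, chr11:69644453-69644498: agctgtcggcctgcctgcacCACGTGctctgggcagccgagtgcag
CDKN1B downstream, chr12:12726951-12726997: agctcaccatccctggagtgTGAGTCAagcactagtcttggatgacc

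Another 4 runs were chosen after their values were seen. AP-1 matches lay 13 bp from the midpoint of a CDK6 intron region that was gained in DCIS and marked in both 10A groups, in a second such CDK6 region as a pair 12 bases apart, and in an MTAP intron region gained in 10A.
CDK6 intron, chr7:92752417-92752463: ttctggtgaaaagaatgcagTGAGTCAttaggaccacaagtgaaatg
CDK6 intron, chr7:92766859-92766924: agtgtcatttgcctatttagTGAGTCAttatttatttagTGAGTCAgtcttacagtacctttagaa
MTAP intron, chr9:21833646-21833692: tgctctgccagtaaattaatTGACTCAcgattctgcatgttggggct
The fourth holds a match to the p53 consensus with at most 1 letter off. It lies in the region upstream of CDKN1A that was gained in 10A, and just before the start of the shorter DCIS region gained there, and a window of 1400 bp at the midpoint held such a match in 1.15% of all 10A regions and 0.882% of all DCIS regions.
CDKN1A upstream, chr6:36667238-36667297: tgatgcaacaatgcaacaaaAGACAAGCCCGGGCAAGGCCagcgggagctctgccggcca

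In 10A, 60 of the 161 regions at these loci were gained in shANCO1 cells, 37.3% beside 43.6% of all 50284 regions tested. None was lost (0.225% of all regions), and by the authors' csaw test none fell at an unadjusted p under 0.05 either. In DCIS, 18 of 139 were gained, 12.9% beside 23.6% of all 44790 regions, and 1 was lost, 0.719% beside 4.86%. The share gained at these loci thus lay below the share over all regions in both lines. Counts for single loci below are to be read against the same shares of all regions. The median log2 fold change of the members was 0.74 in 10A beside 0.76 over all regions, and 0.38 in DCIS beside 0.52, so the zero of each table lies well below its median and values are best read against that median. PVT1 alone supplied 116 of the 161 and 98 of the 139 regions. Without it, 26 of 45 regions (57.8%) were gained in 10A, and 9 of 41 (22.0%) were gained and 1 was lost in DCIS. Overlapping or touching regions of 1 domain share reads and are not replicates. A gain did not require enrichment over input. In 10A 42 of the 60 member gains overlapped a region enriched in 10A shANCO1 cells, and in DCIS 8 of the 18 overlapped one enriched in DCIS shANCO1 cells. Over all regions 15346 of 21913 gains did so in 10A and 4053 of 10567 in DCIS. The study counted 15346 and 4053 up-regulated peaks, so its set is smaller than the gains here.

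**Figure D1:**
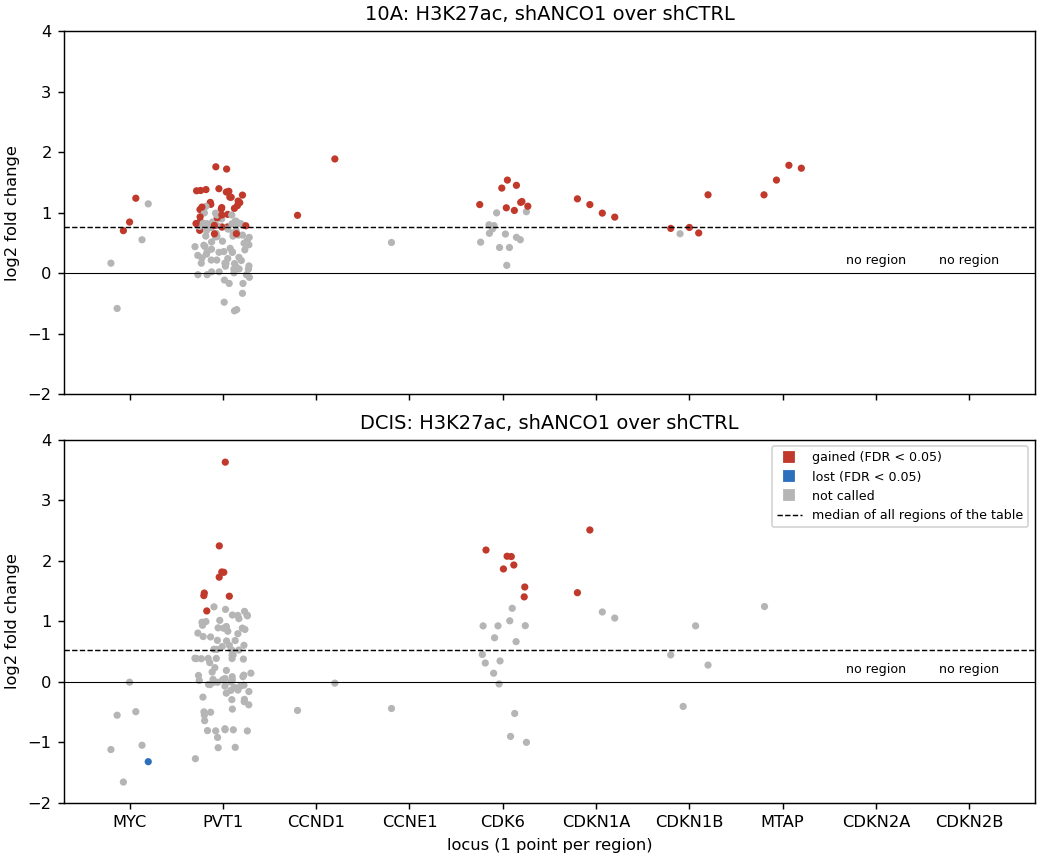
Log2 fold change of H3K27Ac in shANCO1 over shCTRL for every region of each locus (1 point per region) in 10A (top) and DCIS (bottom), with red for gained, blue for lost and grey for not called, and a dashed line at the median of all regions of the table. In 10A every called point is a gain, whereas in DCIS the MYC points all sit below 0 and the gains come from PVT1, CDK6 and CDKN1A.

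At CDKN1A 2 regions were gained in both lines at overlapping places. All 4 of its regions were gained in 10A, with log2 fold changes of 0.93 to 1.23. In DCIS 2 of 4 were gained and all 4 lay above the table median, from 1.05 to 2.51. The DCIS maximum was chr6:36675801-36678500, which spans the most upstream GENCODE start of the gene and ends before the RefSeq start at 36678714. It rose by a log2 fold change of 2.51 (FDR 2.48e-09), all 26 of its windows counted as gained, and 96.4% of DCIS regions had an equal or lower value. The matching 10A region, 100 bp longer, rose by 1.13 (FDR 0.000135). The annotation of the CDKN1A rows also names DINOL and PANDAR, neighbouring non-coding RNA genes, so the signal cannot be given to 1 of these genes.

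The 10A region upstream of CDKN1A that holds the p53-like match printed above lay 8460 bp from the gene (chr6:36666601-36668000) and rose by 1.23 (FDR 0.00854). The overlapping DCIS region, chr6:36667301-36668100, rose by 1.47 (FDR 0.00459). Inside the gene, the region over the RefSeq start, chr6:36678601-36681300, rose by 0.99 (FDR 0.000383) in 10A. The DCIS region beginning 87 bp past that start had 1.15 (FDR 0.123) and the one behind it 1.05 (FDR 0.101), and neither was called.

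Marking over input at CDKN1A went the same way. In DCIS, shANCO1 cells had 3 enriched regions over 2.2 kb and shCTRL cells had none, the nearest enriched region to the RefSeq start being 83.4 kb away. In 10A, shANCO1 cells had 5 over 5 kb and shCTRL cells 1 of 400 bp. Over the whole genome 28607 regions were enriched in 10A shANCO1 and 15490 in 10A shCTRL cells. In DCIS the totals were 16692 in shANCO1 and 15480 in shCTRL cells. Enriched regions at CDKN1A and at the loci below are to be read against these totals, which differ widely in 10A. These counts come from separate comparisons with input that share the libraries of the direct tables, and the difference between groups was not tested there.

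**Figure D2:**
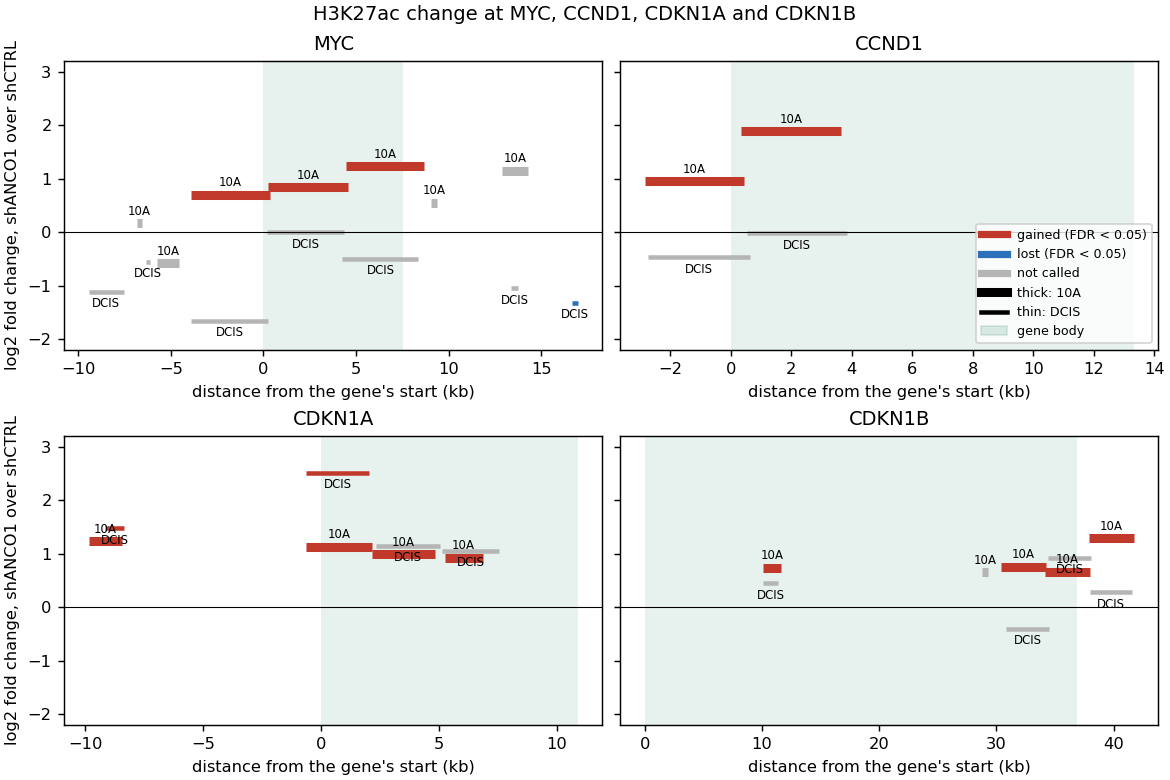
Log2 fold change of each region by distance in kb from the most upstream annotated start of MYC, CCND1, CDKN1A and CDKN1B, with thick bars for 10A, thin bars for DCIS and the gene body shaded. At CDKN1A the highest bar is the DCIS region over the start at 2.51, whereas at MYC and CCND1 the 10A bars over the gene are red and the DCIS bars lie at or below 0.

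CDK6 carried gains in both lines, some at the same and some at different places in the gene. Of its 22 regions in each direct table, 9 were gained in 10A and 7 in DCIS, and the median log2 fold change was 0.90 and 0.92. Over all regions 43.6% were gained in 10A and 23.6% in DCIS, so the CDK6 share in 10A was not above that of all regions. In 10A the promoter had the lowest FDR, chr7:92834501-92837800, covering an untranslated exon, and rose by 1.13 (FDR 0.000152). The adjoining region, which holds a coding exon, rose by 1.04 (FDR 0.00104). In DCIS the promoter region had 0.92 (FDR 0.0931) and its neighbour 0.31 (FDR 0.861), so neither was called. The 10A promoter was enriched over input in shANCO1 but not in shCTRL cells, where the nearest enriched region lay 27 kb away, while in DCIS it was enriched in both groups.

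The strongest DCIS gain was intronic, chr7:92644801-92647400, at 2.18 (FDR 1.32e-05) in the stretch with the TEAD match printed above. The matching 10A region rose by 1.11 (FDR 0.0194). The largest 10A gain, chr7:92806001-92810800, was 1.54 (FDR 0.00665), and neither of the 2 DCIS regions over it was called (FDR 0.989 and 0.429). Of 16 regions in 10A that overlapped a DCIS region, 3 were gained in both lines, 5 in 10A alone, 4 in DCIS alone and 4 in neither.

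Cut into 4 equal segments of 57.9 kb from its start, CDK6 showed a stretch of introns marked in one line only. The second segment held 8 enriched regions in 10A shANCO1 and 7 in 10A shCTRL cells, and 0 in both DCIS groups. The third held 1 and 0 in 10A, and 5 and 7 in DCIS shANCO1 and shCTRL cells. Between shANCO1 and shCTRL DCIS cells, 4 of 7 regions in the second of these were gained, at log2 fold changes of 1.86 to 2.08, and 0 of 5 in the third. The AP-1 pair and the single AP-1 match printed above lie in this second segment. The 10A regions over these 4 DCIS gains had 0.13 to 1.41, and 1 of them, chr7:92746201-92748900, was gained (FDR 0.00391). Of the 4, 3 overlapped regions enriched in both 10A groups, and chr7:92764001-92764500 overlapped none. Lines were not compared in 1 test, so these differences are side-by-side values.

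**Figure D3:**
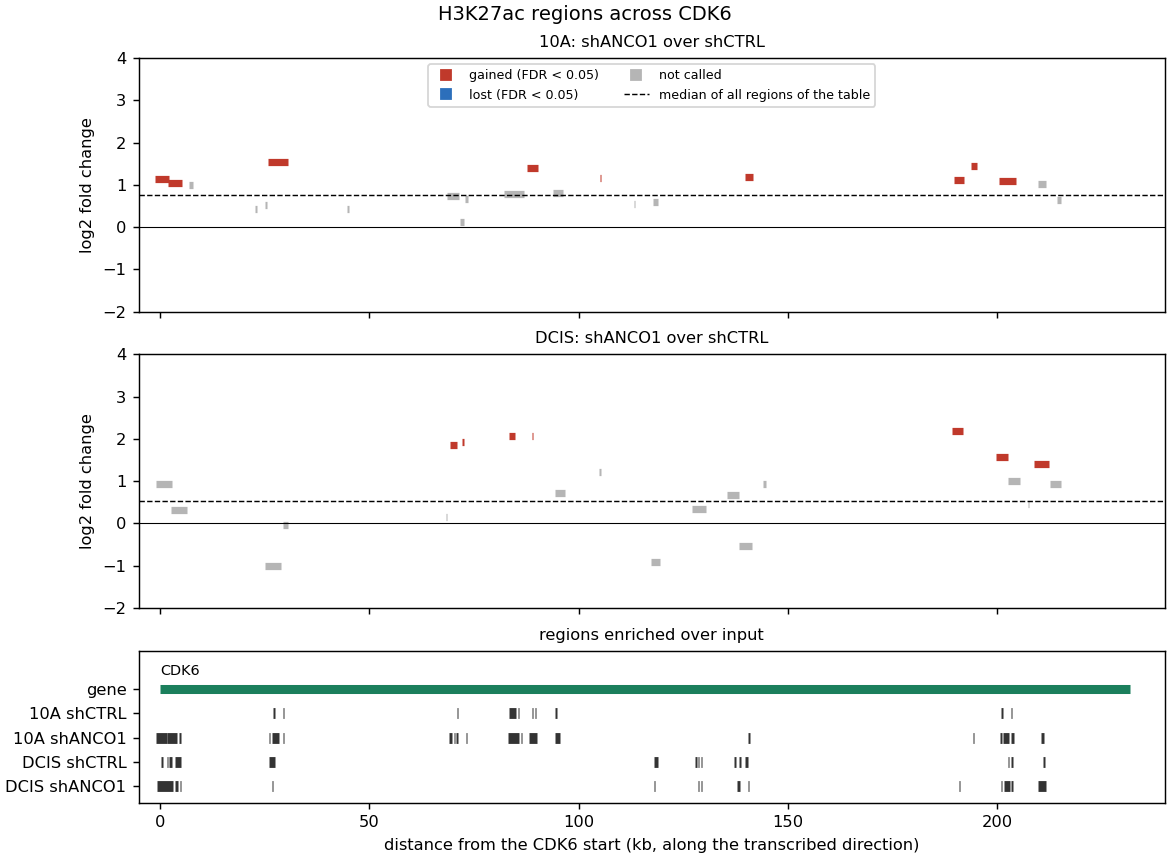
CDK6 regions by distance in kb from its start, with log2 fold change in 10A (top) and DCIS (middle) and the regions enriched over input in each group (bottom). Between about 70 and 90 kb the DCIS gains sit at 1.86 to 2.08, mostly over places enriched in 10A only, and between about 115 and 140 kb the DCIS regions are enriched in DCIS groups and not gained.

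CCND1 differed in call between the lines. Its 2 regions adjoin across the start of the gene. In 10A, chr11:69638301-69641600 rose by 0.96 (FDR 0.00327) and chr11:69641501-69644800, inside the gene, rose by 1.89 (FDR 0.000777), a value that 99.4% of 10A regions did not exceed. In DCIS the same places had -0.47 (FDR 0.615) and -0.02 (FDR 0.995). The authors' direction was mixed for both of these DCIS regions and for that of CCNE1, so each value stands for 1 window only. All 4 groups were marked there, over 4.7 kb in 10A shANCO1, 1.3 kb in 10A shCTRL, 3.1 kb in DCIS shANCO1 and 2.5 kb in DCIS shCTRL cells. The other cyclin, CCNE1, had 1 short region upstream of its start in each line, at 0.51 (FDR 0.406) in 10A and -0.43 (FDR 0.625) in DCIS, and was enriched over input in DCIS shCTRL cells alone, in 1 region of 200 bp (FDR 8.25e-09).

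CDKN1B gains were called in 10A only, and most sat at the level of the whole table. In 10A 4 of 5 regions were gained. The region over the RefSeq start, chr12:12715901-12719700, rose by 0.76 (FDR 0.00316), with 49.2% of 10A regions at or below that value. The one past the gene, chr12:12723401-12727200, whose overlap annotation names DDX47 and APOLD1 and which holds the AP-1 match printed above, rose by 1.30 (FDR 0.00121). In DCIS all 4 regions missed the threshold, from -0.41 to 0.92. Enriched regions that overlap or flank the gene were found in every group, with full widths of 6.4 to 11.4 kb, parts outside the gene included. The place chr12:12695601-12697100, in its long first intron beside GPR19, was enriched in all 4.

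At MTAP 10A gained acetylation inside the gene and not at its start. The 4 regions, chr9:21833101-21834300 to chr9:21854001-21855800, rose by 1.30 to 1.78, with the lowest FDR, 4.56e-06, in the last of them. Their values lay at or above 90.6% of all 10A regions. In shANCO1 10A cells 4 MTAP regions were enriched over input, and 3 of the 4 gained regions overlapped them, chr9:21836101-21836300 being the exception. No other group had an enriched MTAP region. DCIS had 1 region of 300 bp with 1.24 (FDR 0.084). The nearest region to the MTAP start lay 30.5 kb downstream in 10A and 52.4 kb downstream in DCIS.

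CDKN2A and CDKN2B lay in a stretch without any tested region in either line. In 10A no region fell between chr9:21855800 and chr9:22169601, 313.8 kb, and in DCIS none fell between chr9:21855300 and chr9:22171001, 315.7 kb. The stretch holds the end of MTAP, both starts of CDKN2A, CDKN2B and CDKN2B-AS1. Of all gaps between neighbouring regions, 96.9% were shorter in 10A and 96.1% in DCIS, and the median gap was 11.7 and 11.4 kb. By comparison 58.8% and 58.0% of 19607 protein-coding genes had a region within 1 kb of a start, as did 6 of the 9 protein-coding members, and CDKN2A, CDKN2B and MTAP did not.

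Marking over input beside that stretch differed by side and group. Toward the telomere MIR31HG, a non-coding RNA gene, was enriched in all 4 groups, in 1 to 3 regions. Beyond CDKN2B-AS1, chr9:22211101-22212800 rose by 1.32 (FDR 0.0049) in 10A, and chr9:22211001-22211700 rose by 1.52 (FDR 0.0382) in DCIS. Of the 10 neighbours listed for this locus 4 had regions in each line. In 10A 4 of 14 regions of these genes were gained (28.6%, beside 43.6% of all regions), and in DCIS 1 of 11 (9.09%, beside 23.6%). The DCIS gain was at ELAVL2. Regions of FOCAD, KLHL9 and ELAVL2 lie outside the span plotted around CDKN2A. Regions within that span that name none of the listed neighbours are not in these counts. Most of them were gained in 10A, and in DCIS some were gained and some not called. The counts thus describe the listed genes and not the flanks of the stretch. On the CDKN2B-AS1 side the nearest enriched region lay 215.9 kb from CDKN2A in 10A shANCO1 cells, 1774.6 kb in 10A shCTRL cells, and 4896.6 and 4896.5 kb in DCIS shANCO1 and shCTRL cells. The tables list only windows with enough reads, so unmarked chromatin and DNA missing from the lines cannot be told apart.

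**Figure D4:**
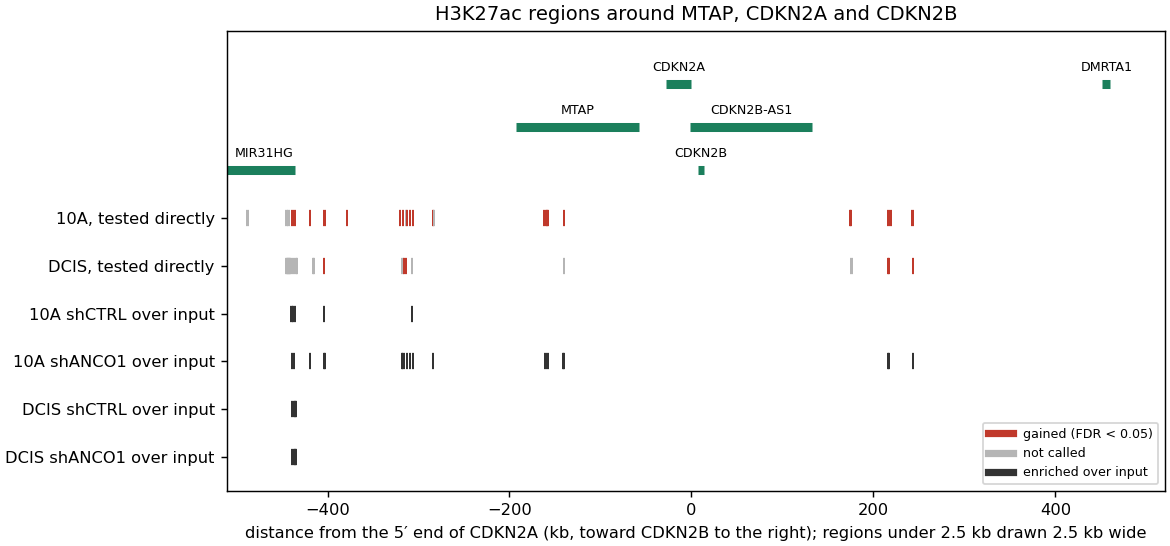
Regions around CDKN2A by distance in kb from its 5′ end, with 1 row per table: red for gained and grey for not called in the direct tables, black for enriched over input, and green bars for genes. No mark is drawn between about -140 and 174 kb, the stretch with the end of MTAP, CDKN2A, CDKN2B and CDKN2B-AS1, in any row.

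MYC lies at chr8:127735434-127742951. In 10A the 3 regions that cover its promoter and body were gained and no other of its 7 was called. The promoter region, chr8:127731501-127735800, rose by 0.70 (FDR 0.00276), the next, chr8:127735701-127740000, by 0.85 (FDR 0.000399) and the one over the 3′ end, chr8:127739901-127744100, by 1.24 (FDR 0.00162). The first of these lay below the median of all 10A regions and the last well above it, with 88.3% of regions at or below its value.

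In DCIS all 7 MYC regions had a log2 fold change below 0, from -1.66 to -0.01, beside a table median of 0.52. These are values of 1 representative window each, and the authors' direction was mixed for 2 of the 7. The promoter region, chr8:127731501-127735700, had -1.66 (FDR 0.12) with 1 of its 41 windows counted as lost, and the regions over the body had -0.01 (FDR 0.998) and -0.49 (FDR 0.764). Only chr8:127752101-127752400, 9150 bp past the gene, was called lost, at -1.32 (FDR 0.0465). It spans 2 windows and was enriched over input in no group. Enriched regions that overlap or flank MYC were found in all 4 groups. Their full widths, with any part outside the gene, came to 7.1 kb in 10A shANCO1 and 3.5 kb in 10A shCTRL cells. In DCIS they came to 6.6 kb in shANCO1 and 6.9 kb in shCTRL cells. CASC11, antisense and upstream of MYC, overlaps the same regions, and ChIP-seq has no strand to separate them.

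PVT1, at chr8:127794526-128187101, had the most regions of the 10 loci. Among the 5088 genes of 100 kb or more it had the most regions in both direct tables, and regions covered 39.8% of its 392.6 kb in 10A and 29.6% in DCIS. Among the same genes it ranked 4 and 9 by this share, where the median gene had 1.26% and 0.74%. Enriched regions covered less, 6.39% in 10A shANCO1, 2.41% in 10A shCTRL, 2.92% in DCIS shANCO1 and 1.85% in DCIS shCTRL cells. The tables carry no copy number, so marking per copy and number of copies cannot be told apart.

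In 10A 34 of 116 PVT1 regions were gained, at log2 fold changes up to 1.76. This was a smaller share than the 43.6% gained over all 10A regions. The lowest FDR, 1.21e-05, belonged to chr8:127853201-127856400, which holds an exon and an internal start and rose by 1.06. The region over the main start, chr8:127793701-127798000, rose by 0.71 (FDR 0.00198). The largest gain, 1.76 at chr8:127862501-127863000, was a region of 500 bp (FDR 0.000163). Gains were spread over the gene, with 12, 11, 1 and 10 in its 4 successive segments of 98.1 kb.

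In DCIS 9 of 98 PVT1 regions were gained, 4 in the second segment and 5 of 10 in the last, and none of the 37 in the first. The share gained over all DCIS regions was larger, 23.6%. The region over the main start had -0.55 (FDR 0.989). The largest gain of all 10 loci was chr8:128182701-128183300 near the 3′ end, at 3.63 (FDR 1.75e-09), with all 5 windows gained and 99.5% of DCIS regions at or below it. It overlapped regions enriched over input in both 10A groups and in neither DCIS group. The lowest FDR, 5.61e-10, was at chr8:128126301-128129100, which rose by 2.25. Its 10A counterpart rose by 0.82 (FDR 5.75e-05). That place was enriched over input in 10A shANCO1 (5.67), 10A shCTRL (4.42) and DCIS shANCO1 cells (5.42), on the log2 scale over input, and had no enriched region in DCIS shCTRL cells.

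**Figure D5:**
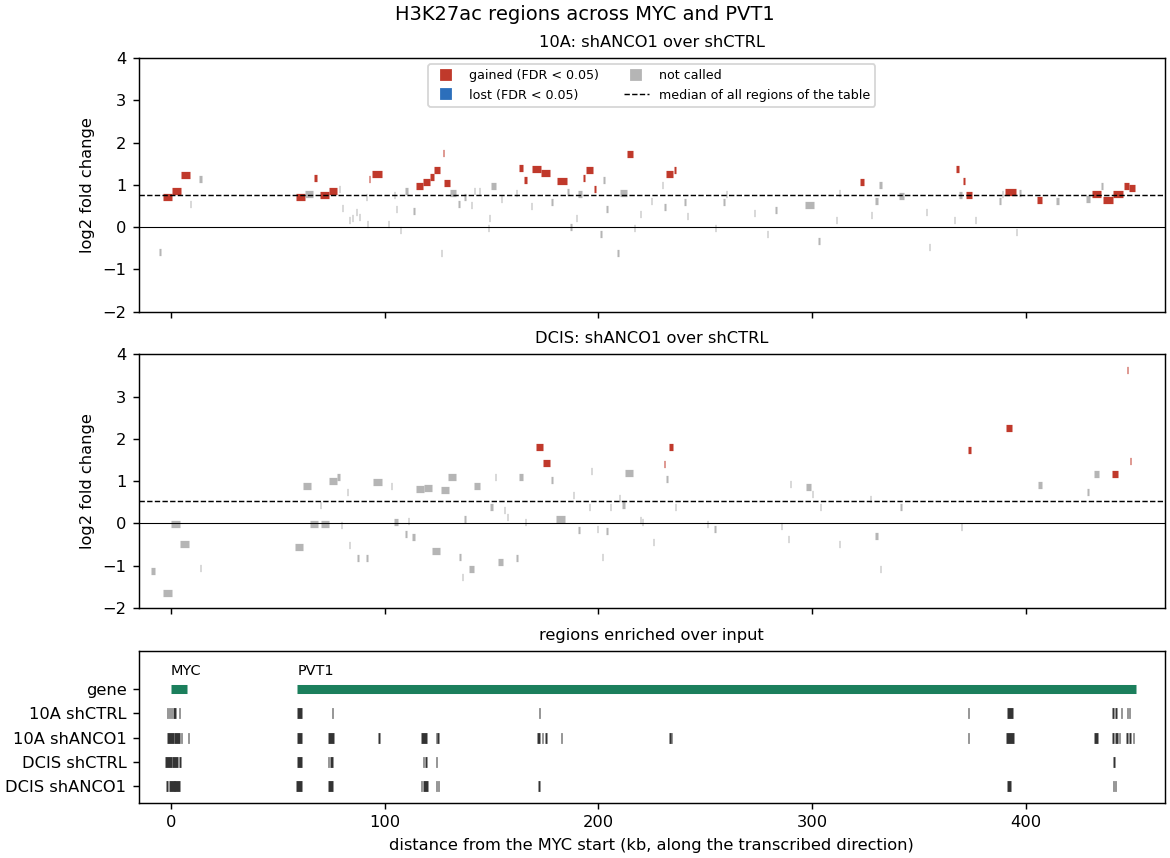
MYC and PVT1 regions by distance in kb from the MYC start, with log2 fold change in 10A (top) and DCIS (middle) and enriched regions per group (bottom). Red gains run along PVT1 in 10A, and in DCIS they stand at about 170 to 235 kb and beyond 370 kb, where the highest is 3.63.

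The DCIS gains at these loci fell mostly on places marked in 10A, chiefly at PVT1 and CDK6. All 18 overlapped a region tested in 10A, and 13 were gained there too. Over all 10A regions 43.6% were gained, and the share among all gained DCIS regions was not counted. Of the 18, 11 (61.1%) overlapped a region enriched in 10A shCTRL cells, 8 (44.4%) one enriched in DCIS shANCO1 cells and 3 (16.7%) one enriched in DCIS shCTRL cells. Over all 10567 gained DCIS regions these shares were 33.4%, 38.4% and 14.1%. Of the 11, 6 were PVT1 and 4 were CDK6 regions, so they are not independent and describe few loci. The 10A shCTRL libraries took no part in the DCIS contrast, whereas the DCIS groups did. Among the 120 member regions not called in DCIS, 15 (12.5%) overlapped a 10A shCTRL region, beside 20.7% over all regions not called. PVT1 supplied 89 of the 120 and 3 of the 15, so the 12.5% mostly describes PVT1. At CDK6 4 of 15 regions not called overlapped one (26.7%), beside 4 of 7 gained (57.1%).

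In the other direction, 50 of the 60 regions gained in 10A overlapped a DCIS region, and 14 of these were also gained in DCIS while 36 were not called there. Regions with a counterpart made up 66.5% of the 10A and 77.7% of the DCIS members. At MYC, CCND1, CDKN1B and MTAP no region was gained in both lines. At CDKN1A 2 were, at CDK6 3 and at PVT1 9 by the 10A regions and 8 by the DCIS regions. These pairings, and those given for CDK6 above, were counted for members only. No share over all regions stands beside them, so they cannot be read as particular to these loci.

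The searched motifs were mostly less frequent at these loci than over all regions, taking the 500 bp at each midpoint. AP-1 letters were in 18 of 161 regions in 10A (11.2%, beside 18.28% of all regions) and in 17 of 139 in DCIS (12.2%, beside 15.34%). TEAD letters were in 23.6% and 28.1%, beside 27.97% and 27.08%. E-box letters were in 4.97% and 5.04%, beside 6.865% and 7.765%. Among gained members AP-1 letters were in 11 of 60 in 10A (18.3%, beside 20.3% of all gained regions) and 5 of 18 in DCIS (27.8%, beside 25.4%), both near the background. TEAD letters were in 9 of the 60 in 10A (15%, beside 27.3%) and 5 of the 18 in DCIS (27.8%, beside 30.1%). For E-box letters the shares were 1.67% in 10A, beside 6.84%, and 5.56% in DCIS, beside 6.36%. No member region of CCND1 in 10A and none of CDKN1B in either line held any of the 3 motifs in that window.

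The other genes of the G1/S step are read against all regions, of which 43.6% were gained and 0.225% lost in 10A, and 23.6% and 4.86% in DCIS. Of 28 genes 26 had regions in 10A, and 46 of 79 regions (58.2%) were gained and none lost. In DCIS 27 had regions, and 6 of 80 (7.5%) were gained and 8 (10%) lost, with a median of -0.03. RB1, the gene of the retinoblastoma protein, had 3 of 8 regions gained in 10A and 3 of 16 lost in DCIS, where its median was -0.73. CDKN2C, the gene of the inhibitor p18, had 3 of 4 gained in 10A, and 1 gained and 2 lost of 6 in DCIS. CCNE2, the second cyclin E gene, had 1 region, at 1.19 in 10A (gained) and -1.22 in DCIS (lost). CCND3, a D-type cyclin gene, had 5 of 6 gained in 10A and 0 of 5 in DCIS, and CCND2 had no region.

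In the MYC network the share gained was above that of all regions in 10A (43.6%) and near it in DCIS (23.6%). Its share in 10A was close to that of the other G1/S genes (58.2%). Median region width in 10A was 1500 bp in this list and 1700 bp in the other G1/S genes, beside 1000 bp over all regions. What part width plays was not tested. Of 13 genes 11 had regions in each line and all 11 had at least 1 gained region in 10A (28 of 49 regions, 57.1%), as did 7 in DCIS (12 of 47, 25.5%), and none was lost. MXD1, a repressor that competes for MAX, had 6 of 8 gained in 10A and 2 of 6 in DCIS, and MLXIP, a glucose-sensing relative, 3 of 7 and 4 of 7. MYCL and MYCN had no region. Around MYC the 6 listed neighbours had 27 of 89 regions gained and none lost in 10A, and 9 gained and 8 lost of 80 in DCIS. CASC11 is among these neighbours and shares regions with MYC, so these counts are not separate from those of MYC. Around CCND1 the 8 listed neighbours had 11 of 14 gained in 10A, and 9 gained and 1 lost of 27 in DCIS. The share lost over all regions was 0.225% in 10A and 4.86% in DCIS.

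The lines were checked by their marked genes. Of 8 epithelial genes, 6 had an enriched region in each 10A group and 7 in each DCIS group, KRT14 being without one in all 4. VIM, whose use varies among epithelial lines, had 3 enriched regions in 10A shANCO1 cells and 0 in the other groups. Among genes of other cell types PTPRC and CD3E had no region in any table. PECAM1, an endothelial gene, had 1 to 6 and COL1A1, a fibroblast gene, 0 to 2 enriched regions per group. In DCIS 9 of 20 PECAM1 regions were lost, beside 4.86% of all DCIS regions, and what part this plays in the values above was not tested. The tables measure acetylation, so the RNA level left by the hairpin was not measured here.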

How the data were processed

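Chromatin of 24 libraries in 8 groups of 3 was sequenced. Per the study's methods, reads were aligned to GRCh38 with BWA and Rsubread and deduplicated with SAMtools, and regions were tested with csaw and annotated with ChIPpeakAnno. GEO's processing notes also name FastQC and HOMER. Normalization, window filter, merging distance and the input used were not given in the sources used here. The deposited log2 fold change is the value of 1 representative window per region, and the deposited p-value and FDR are the authors' combined tests, as are the numbers of windows. These comparison columns are all that the tables hold, so they are used here as the authors' values, with no new test.

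Members were all rows naming one of the 10 genes as overlapping or flanking. Every member was named, with its start region, its lowest FDR and its largest calls. The members and gene lists were chosen with earlier results of these data known. Tables were read with Python 3.11.15, pandas 2.3.3 and numpy 2.4.6, and drawn with matplotlib 3.10.9. Overlap meant at least 1 bp. Places and starts came from GENCODE release 44, and sequences from the GRCh38 reference, in which 9 of 9 RefSeq promoters were found unchanged. Counting was tested on simulated data.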

Additional observations from a re-analysis of the deposited data

How the results depend on the processing

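The 6 tables hold no value per replicate, so leaving out each replicate was not run. No paired analysis was possible because the tables carry no replicate columns. Of 52 alternative values, 32 stayed near the reported one. The 60 gains in 10A became 39 when a change of 1 or more on the log2 scale was also required and 26 without PVT1, and the 18 in DCIS became 28 at an FDR under 0.1 and 9 without PVT1. The single DCIS loss became 0 at an FDR under 0.01, 0 with at least 5 windows, 0 with the overlap column only, and 2 at an FDR under 0.1. The median log2 fold change with the table median subtracted turned to -0.023 in 10A and -0.14 in DCIS. With at least 5 windows it was 0.85 and 0.73, without PVT1 0.96 and 0.45, and with the overlap column only 0.39 in DCIS. Enriched regions with at least 5 windows numbered 31 in 10A shANCO1, 16 in 10A shCTRL, 21 in DCIS shANCO1 and 20 in DCIS shCTRL cells, and 39 without PVT1 in 10A shANCO1 cells. Leaving out PVT1 was chosen after seeing the data. Depth was unknown, so weak marking and its absence could not be separated.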
